A study of Homo sapiens with 16 samples.

Results

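ERBB2, the gene of the HER2 receptor, and 8 genes that lie beside it on chromosome arm 17q were followed in breast cancer cells during inhibition of the HER2 kinase. All probes whose gene symbol was ERBB2, GRB7, STARD3, PERLD1, C17orf37, PPP1R1B, TCAP, PNMT or ORMDL3 were taken, which gave 15 of the 24526 probes and 9 of the 18631 gene symbols in the table. The rule used the symbols and no measured value. ERBB2, GRB7 and PPP1R1B each had 3 probes and the other genes 1 probe each.

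The cells were SUM-225, a human breast cancer line with amplification and over expression of HER2. All 16 arrays came from cells to which 1 µM CP724,714 (an inhibitor of the HER2 kinase) was added. The labels gave their medium as Ham's F-12 with 5% fetal bovine serum, 5 µg/ml insulin and 1 µg/ml hydrocortisone. The study's methods name a medium lacking EGF and insulin for this line, which differs from the labels. RNA from parallel cultures was hybridised to 1 Illumina bead array for each time point, every 3 h from 0 h to 45 h. The effect of the inhibitor cannot be told apart from that of time in culture, since no untreated course was analysed here, and no time point had a replicate.

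HER2 is a receptor tyrosine kinase of the EGF receptor family. It has no known ligand of its own, pairs with the other receptors of the family and signals through PI3K, AKT and the MAP kinases. In HER2-positive breast cancer a stretch of 17q12 is copied many times, and the genes next to ERBB2 are commonly gained and over expressed with it. DNA copy number was not measured here, so the extent of the amplified stretch in these cells is not known from these data.

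Of the 15 probes, 14 were detected on at least 3 arrays (detection p-value under 0.05) and entered the test, and 13 were detected on all 16. Each probe was fitted with a cubic course over time in limma, and the linear change is its first-order term, in log2 units over 45 h, with its SE. After Benjamini-Hochberg adjustment over all 16110 probes tested, 3 member probes rose (ERBB2, C17orf37 and ORMDL3) and 2 fell (PNMT and PPP1R1B). Over all probes tested 26.0% rose and 21.7% fell. A linear trend in either direction was called for 5 of 14 member probes, beside 47.7% of all probes, and the difference between these shares was not tested. The median linear change was 0.12 log2 units for the 14 member probes and 0.05 for all probes tested. The median deviation around the fitted course was 0.18 log2 units for the members and 0.19 for all probes. A time-dependent course of any smooth shape was found for 9 member probes, with 51.3% of all probes, and a departure from a straight line for 4, with 19.3% of all probes. With each set of 4 consecutive arrays as a factor, 0 member probes and 145 of all probes had a linear trend (ERBB2 ILMN_1728761 0.39 ± 0.39, adjusted p = 0.692 in limma), though the labels name no batch. The 4 curved courses were those of GRB7 (2 probes), TCAP and PNMT. Because the material was bulk RNA, fewer cells of a type and less RNA per cell cannot be told apart.

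The arrays had median signals between 242 and 384, and between 14110 and 15073 probes were detected on each. The epithelial markers KRT8, KRT18, KRT19, EPCAM and CDH1 were detected on all 16 arrays. KRT8 fell by 0.68 and the brightest probe of KRT18 fell by 0.74 log2 units, the other KRT18 probe having -0.07 ± 0.16. Of 7 markers of blood, stromal and endothelial cells, PTPRC and PDGFRB were detected on 0 arrays, CD3E on 1, and COL1A1 and COL1A2 on 5 each. PECAM1 was detected on all 16 arrays without a linear trend (-0.56 ± 0.23, adjusted p = 0.0537 in limma). VWF was detected on 13 arrays and rose by 2.51 ± 0.28 log2 units (adjusted p = 4.03e-07 in limma). The part of these markers in the changes of the members was not tested.

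The place of each member on the scale of the array was taken from the deposited signals. The brightest probe of an array had a signal between 71727 and 74152, and a probe was counted as near the top when it reached 50% of that signal. Between 207 and 463 probes per array (0.844% to 1.89%) were near the top. Of the member probes, 3 were near the top on every array, namely ERBB2 ILMN_2352131, PERLD1 ILMN_1805636 and GRB7 ILMN_2405254, and GRB7 ILMN_1740762 reached it on some arrays. ERBB2 ILMN_2352131 lay between 94.5% and 99.4% of the brightest signal and held places 6 to 87 from the top. PERLD1 lay between 91.8% and 99.8% and held places 2 to 80. A place on the scale describes a probe and not the abundance of its transcript, since probes bind their targets with different strength.

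**Figure D1:**
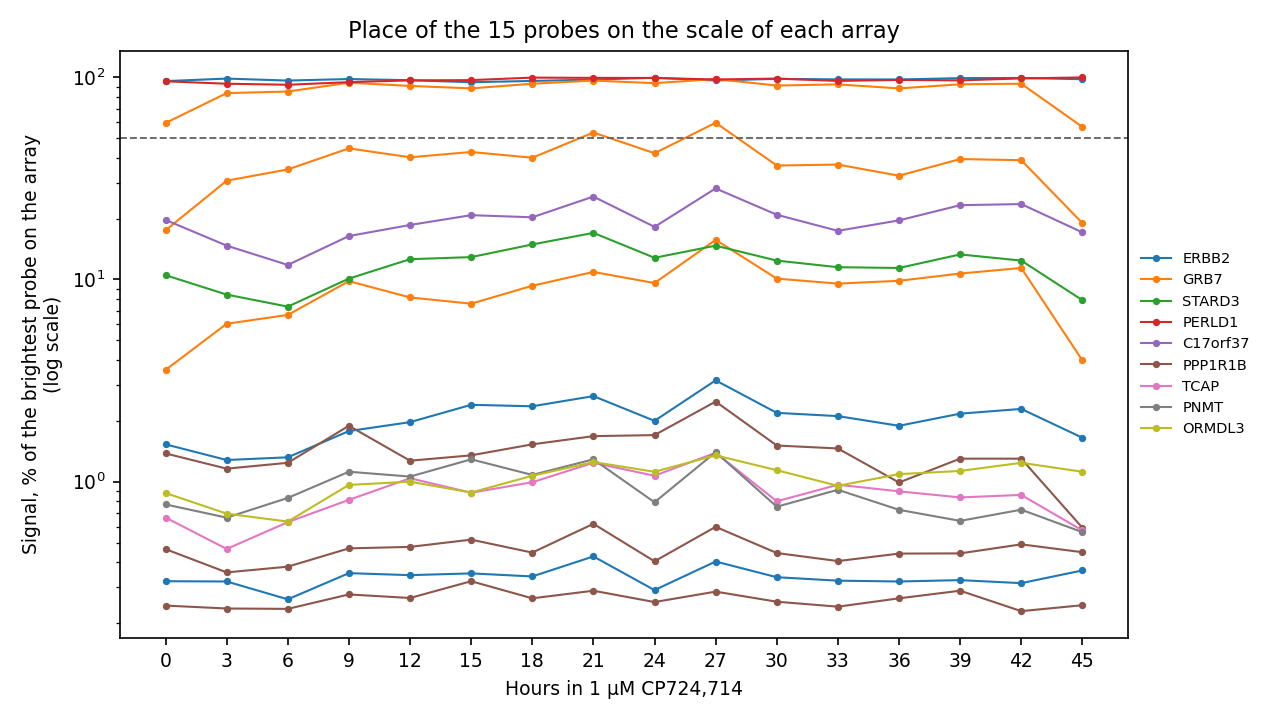
Signal of the 15 member probes on each array as a percent of the brightest probe of that array (log axis), against hours in the inhibitor. Points are single arrays, and the dashed line marks 50%. One ERBB2 probe and the PERLD1 probe stay above 90% throughout, the 3 GRB7 probes dip at 0 h and 45 h, and the dimmest lines are probes of PPP1R1B and ERBB2.

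The 3 ERBB2 probes sat at different places of the scale, and a linear trend was called only for the probe of middle brightness. The probe of middle brightness, ILMN_1728761, was the one reported first, because it was detected on all arrays and never near the top (1.28% to 3.17% of the brightest signal). Its log2 signal at successive 3 h steps from 0 h was 10, 10.01, 10.24, 10.19, 10.33, 10.41, 10.37, 10.29, 10.39, 10.41, 10.49, 10.57, 10.45, 10.50, 10.52 and 10.39. It was lowest at 0 h and 3 h, climbed until 33 h, and on all 14 arrays from 6 h on it was above both early values. The lowest and the highest array differed 1.48-fold. The linear change was 0.44 ± 0.09 log2 units (95% interval 0.25 to 0.62, adjusted p = 0.000418 in limma). Without any 1 array it lay between 0.38 and 0.51, past the threshold each time.

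The other ERBB2 probes did not show this rise. ERBB2 ILMN_2352131, at the top of the scale, ran from 16.02 to 16.13 log2 units with a median of 16.11, and its linear change was 0.02 ± 0.04 (adjusted p = 0.783 in limma). The values of this probe on all arrays lay within 1.08-fold of each other. ERBB2 ILMN_1717902, the dimmest, was detected on 12 arrays and ran from 5.70 at 6 h to 6.80 at 45 h, with a linear change of 0.06 ± 0.24 (adjusted p = 0.866 in limma). Its interval, -0.45 to 0.57, holds the change of the middle probe.

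Whether the probes of a gene differed in slope was tested on their log2 difference within each array, by a two-sided permutation test with 100000 resamples and adjustment over 15 pairs of probes (7 of the same gene and 8 of a member against ERBB2 ILMN_1728761). No difference in slope is read from pairs that hold ERBB2 ILMN_2352131, PERLD1 ILMN_1805636 or GRB7 ILMN_2405254, which were near the top on every array. The effect of the upper end of the scale on their slopes was not tested. Of these, GRB7 ILMN_2405254 still went from 59.4% of the brightest signal at 0 h to 98% at 27 h. The dimmest ERBB2 probe differed from the middle probe by -0.38 ± 0.29 (adjusted p = 0.283, permutation test). The part of the upper end of the scale in the flat course of the top probe was not tested.

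**Figure D2:**
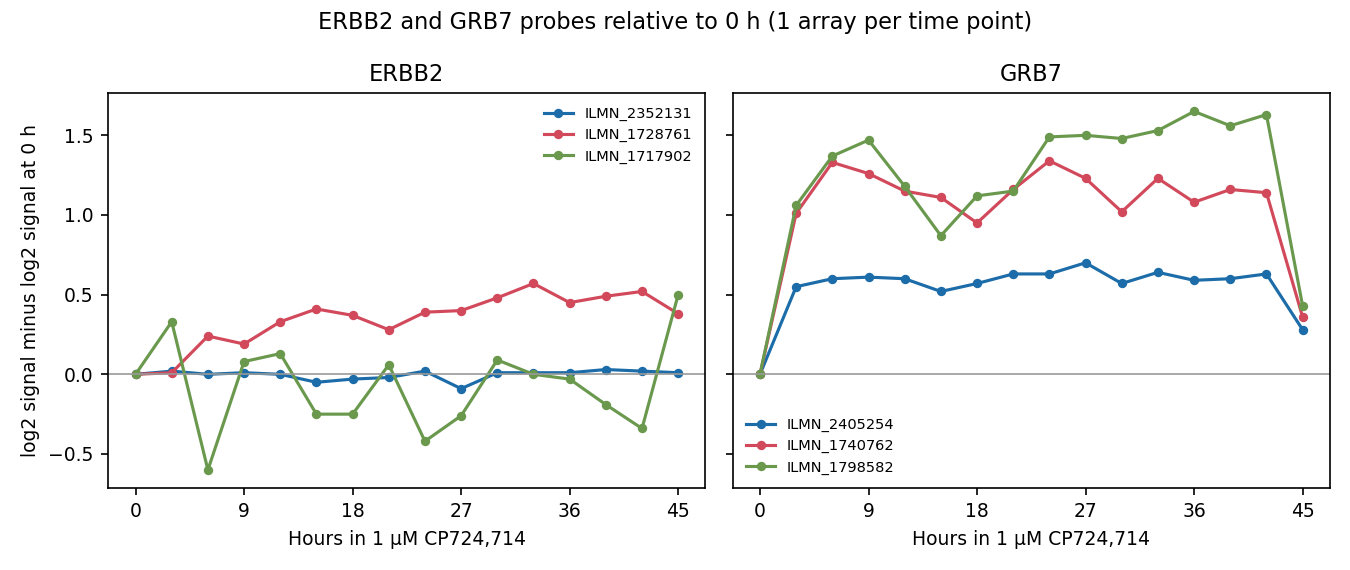
Log2 signal minus the 0 h value of the same probe for the 3 ERBB2 probes (left) and the 3 GRB7 probes (right), against hours in the inhibitor. Points are single arrays. ERBB2 ILMN_1728761 climbs to 0.57, ERBB2 ILMN_2352131 stays near 0, and the GRB7 probes step up at 3 h and drop at 45 h.

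A promoter window of ERBB2 is shown because this gene leads the region and its regulators were examined. It was the only ERBB2 window searched, so the letters at any other start of this gene are not known here. Windows hold 250 bases before and 50 after a transcript start, from RefSeq on GRCh38.p14, and 5 of the 9 members had 7 such windows. They were searched on both strands for an ETS motif (CCGGAAGT), an AP-2 motif (GCCNNNGGC) and an E-box (CACGTG), letters that are in capitals below. Of 35116 promoter windows of the same length, 4.14% held the ETS letters, 23.2% the AP-2 letters and 7.26% the E-box. The ERBB2 window (chr17:39687844-39688143, plus strand) held the ETS letters 2 times, once on each strand, without overlap.
ERBB2: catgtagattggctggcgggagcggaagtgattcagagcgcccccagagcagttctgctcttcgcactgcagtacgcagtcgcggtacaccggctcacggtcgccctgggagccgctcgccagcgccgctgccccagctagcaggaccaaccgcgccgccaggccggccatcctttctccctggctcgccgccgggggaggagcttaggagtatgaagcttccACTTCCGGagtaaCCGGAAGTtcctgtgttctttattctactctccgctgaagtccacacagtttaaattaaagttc
PERLD1, now named PGAP3, starts next to this ERBB2 start on the opposite strand. Its window (chr17:39688008-39688307, minus strand) shares 136 bases with the ERBB2 window shown.
PERLD1: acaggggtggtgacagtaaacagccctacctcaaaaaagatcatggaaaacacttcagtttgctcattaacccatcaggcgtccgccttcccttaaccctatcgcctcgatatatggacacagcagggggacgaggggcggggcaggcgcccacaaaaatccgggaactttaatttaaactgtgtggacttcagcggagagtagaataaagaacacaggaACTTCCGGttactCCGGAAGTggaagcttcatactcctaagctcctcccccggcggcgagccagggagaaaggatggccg
Both ETS matches lie in the shared bases. The window of STARD3 held 1 AP-2 match and no other of these motifs. A match is a run of letters and not evidence of binding.

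Genes known to regulate ERBB2 transcription were examined as a list, of which 10 of 11 were tested by their brightest probe. Of these, 4 rose and 2 fell, beside 27.0% rising and 22.0% falling over the 13108 genes tested. The median change was 0.07 log2 units, and 0.06 over all genes. ELF3, an ETS factor of epithelial cells, rose by 1.85 ± 0.13 log2 units (adjusted p = 1.54e-09 in limma). ETV4, an ETS factor of the PEA3 group, fell by 3.33 ± 0.24 (adjusted p = 1.71e-09 in limma) and was detected on 12 arrays. ESR1, the estrogen receptor, rose by 1.08, GATA3 by 0.40 and TFAP2C, an AP-2 factor, by 0.23 log2 units. CTBP1, a corepressor, fell by 0.25. The ESR1 probe was dim, with signals from 213 to 468. The other CTBP1 probes, at -0.25 and -0.20, did not pass, and the other ETV4 probe, detected on 8 arrays, fell by 3.38. TFAP2A, the other AP-2 factor on the list, had a change of -0.30 ± 0.15 that did not pass (adjusted p = 0.115 in limma). Its other tested probes, at 0.05 ± 0.17 and 0.00 ± 0.14, did not pass either.

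GRB7 encodes an adaptor whose SH2 domain binds HER2 and related receptors. Its 3 probes were each lowest at 0 h and next lowest at 45 h. GRB7 ILMN_1740762 had log2 signals of 13.68, 14.69, 15.01, 14.94, 14.83, 14.79, 14.63, 14.84, 15.02, 14.91, 14.69, 14.90, 14.76, 14.84, 14.81 and 14.04 at successive 3 h steps from 0 h. On the arrays between these it stayed from 14.63 to 15.02. The lowest and highest arrays differed 2.53-fold for this probe, 3.14-fold for ILMN_1798582 (11.34 at 0 h, median 12.76, 12.99 at 36 h) and 1.62-fold for ILMN_2405254 (15.41 at 0 h, median 16.00, 16.11 at 27 h). The probe with the smallest range was the one near the top of the scale on every array.

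From 0 h to 3 h the GRB7 probes rose 2.01-fold (ILMN_1740762), 2.08-fold (ILMN_1798582) and 1.46-fold (ILMN_2405254). A rise at least as large between these arrays was seen in 0.646%, 0.509% and 4.56% of all probes tested. From 42 h to 45 h the same probes dropped 1.71-fold, 2.29-fold and 1.27-fold, which 4.45%, 1.04% and 16.8% of all probes did as far. The typical difference between neighbouring arrays (root mean square over probes) was 0.35 log2 units from 0 h to 3 h and 0.42 from 42 h to 45 h, the latter equalled by the step from 9 h to 12 h and exceeded by none. Each of these arrays stands alone, so neither step has a replicate check.

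The course of GRB7 departed from a straight line for ILMN_1740762 (adjusted p = 0.0244) and ILMN_2405254 (adjusted p = 0.0203), and not for ILMN_1798582 (adjusted p = 0.0933), in limma's F-test. All 3 probes were time-dependent, with adjusted p of 0.0181, 0.01 and 0.0324 in the same order in limma. No linear trend was found for any of them, with changes of 0.10 ± 0.19, 0.13 ± 0.09 and 0.55 ± 0.26 log2 units. The calls of ILMN_1740762 and ILMN_2405254 rested on the first and last arrays: without both, their time-dependence was lost (adjusted p = 0.99 and 0.736 in limma). ILMN_1798582 without both stayed time-dependent (adjusted p = 0.0151 in limma) and rose by 0.60 log2 units (adjusted p = 0.00381 in limma). Its time-dependence was lost without the 33 h or the 36 h array (adjusted p = 0.0525 and 0.0529 in limma). Without the 45 h array alone, ILMN_1798582 rose by 1.00 (adjusted p = 0.000947) and ILMN_2405254 by 0.28 (adjusted p = 0.0116) in limma, and without the 0 h array they had 0.14 (adjusted p = 0.592) and -0.07 (adjusted p = 0.384). Under median scaling ILMN_2405254 was not time-dependent (adjusted p = 0.987), nor was ILMN_1740762 (adjusted p = 0.0517), in limma. The call of ILMN_2405254 was also lost with cyclic loess (adjusted p = 0.673), and with array weights both lost it (adjusted p = 0.219 and 0.305 in limma).

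GRB7 ILMN_1798582 rose against ILMN_1740762 by 0.44 ± 0.14 log2 units over 45 h (adjusted p = 0.0244, permutation test). The call was lost without the 42 h array (0.40, adjusted p = 0.0654, permutation test), and ILMN_1740762 itself was near the top of the scale on some arrays. Of the relatives of GRB7, the brightest probe of GRB10 rose by 0.82 ± 0.19 log2 units (adjusted p = 0.00109 in limma). Its other tested probes had 0.86 ± 0.24 (adjusted p = 0.00601 in limma) and, detected on 6 arrays, -0.25 ± 0.36 (adjusted p = 0.594 in limma). GRB14, with 1 tested probe, fell by 1.08 ± 0.25 (adjusted p = 0.00141 in limma).

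C17orf37, now named MIEN1, encodes a small membrane-anchored protein of cell migration and lies between ERBB2 and GRB7. Its log2 signals were 13.84, 13.67, 13.52, 13.54, 13.72, 13.74, 13.64, 13.79, 13.77, 13.74, 13.88, 13.75, 13.97, 14.04, 14.03 and 13.88 at successive 3 h steps from 0 h. The signal dipped until 6 h and then climbed, and the arrays of 36 h to 42 h were above all earlier ones. The linear change was 0.36 ± 0.08 log2 units (95% interval 0.20 to 0.52, adjusted p = 0.000629 in limma), between 0.32 and 0.46 without any 1 array. The values at 0 h and 45 h were nearly equal, so the rise is that of the fitted course and not of the end points. Its slope differed from that of ERBB2 ILMN_1728761 by -0.07 ± 0.13 (adjusted p = 0.741, permutation test). The promoter window of C17orf37 (chr17:39730483-39730782, minus strand, GRCh38.p14) is shown because a linear rise was also called for this gene. This window did not hold all the ETS letters, only a run lacking the last, as did the window of STARD3. The C17orf37 window also held 1 E-box.
C17orf37: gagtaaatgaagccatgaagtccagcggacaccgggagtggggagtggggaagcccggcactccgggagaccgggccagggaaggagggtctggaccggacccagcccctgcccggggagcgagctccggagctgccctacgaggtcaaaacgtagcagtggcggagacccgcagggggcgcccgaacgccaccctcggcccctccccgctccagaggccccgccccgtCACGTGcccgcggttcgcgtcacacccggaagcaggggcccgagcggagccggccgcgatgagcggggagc

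STARD3, a cholesterol transporter of late endosomes, ran from 12.75 at 27 h to 13.26 at 24 h with a median of 13.11 log2 units. The lowest and highest values were on neighbouring arrays, and the linear change of 0.19 ± 0.11 did not pass (adjusted p = 0.189 in limma). Without the 45 h array it was 0.33 (adjusted p = 0.0307 in limma), and without the 27 h array 0.21 (adjusted p = 0.0407 in limma). Leaving out the 27 h array also made the course of STARD3 time-dependent (adjusted p = 0.00262 in limma). Leaving out the first and last arrays together gave a linear change of 0.34 (adjusted p = 0.0428 in limma). PERLD1, which remodels the lipid of GPI anchors, ran from 16.03 to 16.14 with a median of 16.10 and a linear change of 0.04 ± 0.04 (adjusted p = 0.418 in limma). Its 1.07-fold range was like that of the ERBB2 probe at the top of the scale.

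ORMDL3, a regulator of the first step of sphingolipid synthesis and the member farthest from ERBB2 in the order of genes, had the largest linear change of the member probes with a rising trend. The largest differences from 0 h were those of GRB7. The log2 signals of ORMDL3 were 9.03, 8.87, 8.85, 9.08, 9.17, 8.64, 9.01, 8.99, 9.40, 8.96, 9.41, 9.18, 9.51, 9.38, 9.49 and 9.72 at successive 3 h steps from 0 h. The values of the first 8 arrays did not exceed 9.17, and all 4 arrays from 36 h on were above that. The linear change was 0.71 ± 0.15 log2 units (95% interval 0.40 to 1.02, adjusted p = 0.000518 in limma), between 0.63 and 0.81 without any 1 array. The slope was not distinguishable from that of ERBB2 ILMN_1728761 (difference 0.28 ± 0.20, adjusted p = 0.283, permutation test). The paralogs ORMDL1 (-0.38 ± 0.20) and ORMDL2 (-0.06 ± 0.18) had no linear trend. Of the 3 promoter windows of ORMDL3, none held the motifs searched, and that of the most upstream start is shown (chr17:39927552-39927851, minus strand, GRCh38.p14).
ORMDL3: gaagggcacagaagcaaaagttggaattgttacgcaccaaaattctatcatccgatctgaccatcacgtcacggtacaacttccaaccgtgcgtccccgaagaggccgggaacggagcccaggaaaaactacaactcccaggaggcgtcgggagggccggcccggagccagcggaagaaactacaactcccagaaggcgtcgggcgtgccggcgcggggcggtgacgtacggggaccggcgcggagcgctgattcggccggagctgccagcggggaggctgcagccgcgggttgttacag

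PNMT and PPP1R1B were the members that fell. PNMT, the enzyme that makes adrenaline from noradrenaline, had log2 signals of 8.77, 8.77, 9.41, 9.36, 9.27, 9.35, 9.02, 9.06, 8.75, 9.02, 8.61, 9.09, 8.71, 8.26, 8.46 and 8.30 at successive 3 h steps from 0 h. It was highest from 6 h to 15 h and lowest from 39 h to 45 h. The linear change was -0.77 ± 0.17 log2 units (95% interval -1.12 to -0.42, adjusted p = 0.00075 in limma), between -0.98 and -0.67 without any 1 array. The course was also curved (adjusted p = 0.0324 in limma), but this call was lost without the 0 h, 3 h, 12 h, 15 h, 39 h or 45 h array (adjusted p from 0.0516 to 0.177 in limma) and with no filter on dim probes (adjusted p = 0.0531). Against ERBB2 ILMN_1728761 PNMT fell by 1.20 ± 0.19 (adjusted p = 0.00045, permutation test), under all scalings tried.

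PPP1R1B encodes DARPP-32, an inhibitor of protein phosphatase-1. Its brightest probe, ILMN_2304495, ran from 8.43 at 45 h to 10.29 at 9 h with a median of 9.74 log2 units. The 45 h array was the lowest by far, 2.21-fold below that of 42 h. The linear change was -0.72 ± 0.22 (adjusted p = 0.0122 in limma), and it was -0.32 (adjusted p = 0.248 in limma) without the 45 h array, so the call rested on that array. The second probe, ILMN_1759012, had a linear change of 0.07 ± 0.17 (adjusted p = 0.742 in limma), and the third, ILMN_1690096, was detected on 0 arrays and was not tested. The slopes of the 2 tested probes differed by 0.79 ± 0.41 (adjusted p = 0.129, permutation test). The slope of ILMN_2304495 differed from that of ERBB2 ILMN_1728761 by -1.15 ± 0.29 (adjusted p = 0.00307, permutation test), between -1.22 and -0.84 without any 1 array. PPP1R1A, a paralog that also inhibits protein phosphatase-1, fell by 1.07 ± 0.18 log2 units (adjusted p = 4.78e-05 in limma).

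TCAP, a protein of the muscle Z-disc, had its lowest log2 signal, 7.92, at 3 h and its highest, 9.32, at 24 h, with a median of 8.81. It was higher on the arrays between 6 h and 42 h than on those at 0 h, 3 h and 45 h. The course was curved (adjusted p = 0.0305 in limma) and had no linear trend (0.32 ± 0.20, adjusted p = 0.205 in limma). The curved call was lost without the 3 h, the 24 h or the 45 h array (adjusted p = 0.0607, 0.0649 and 0.182 in limma). Without the 45 h array TCAP rose by 0.58 log2 units (adjusted p = 0.0374 in limma), and without the 3 h array it had 0.05 (adjusted p = 0.843 in limma).

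**Figure D3:**
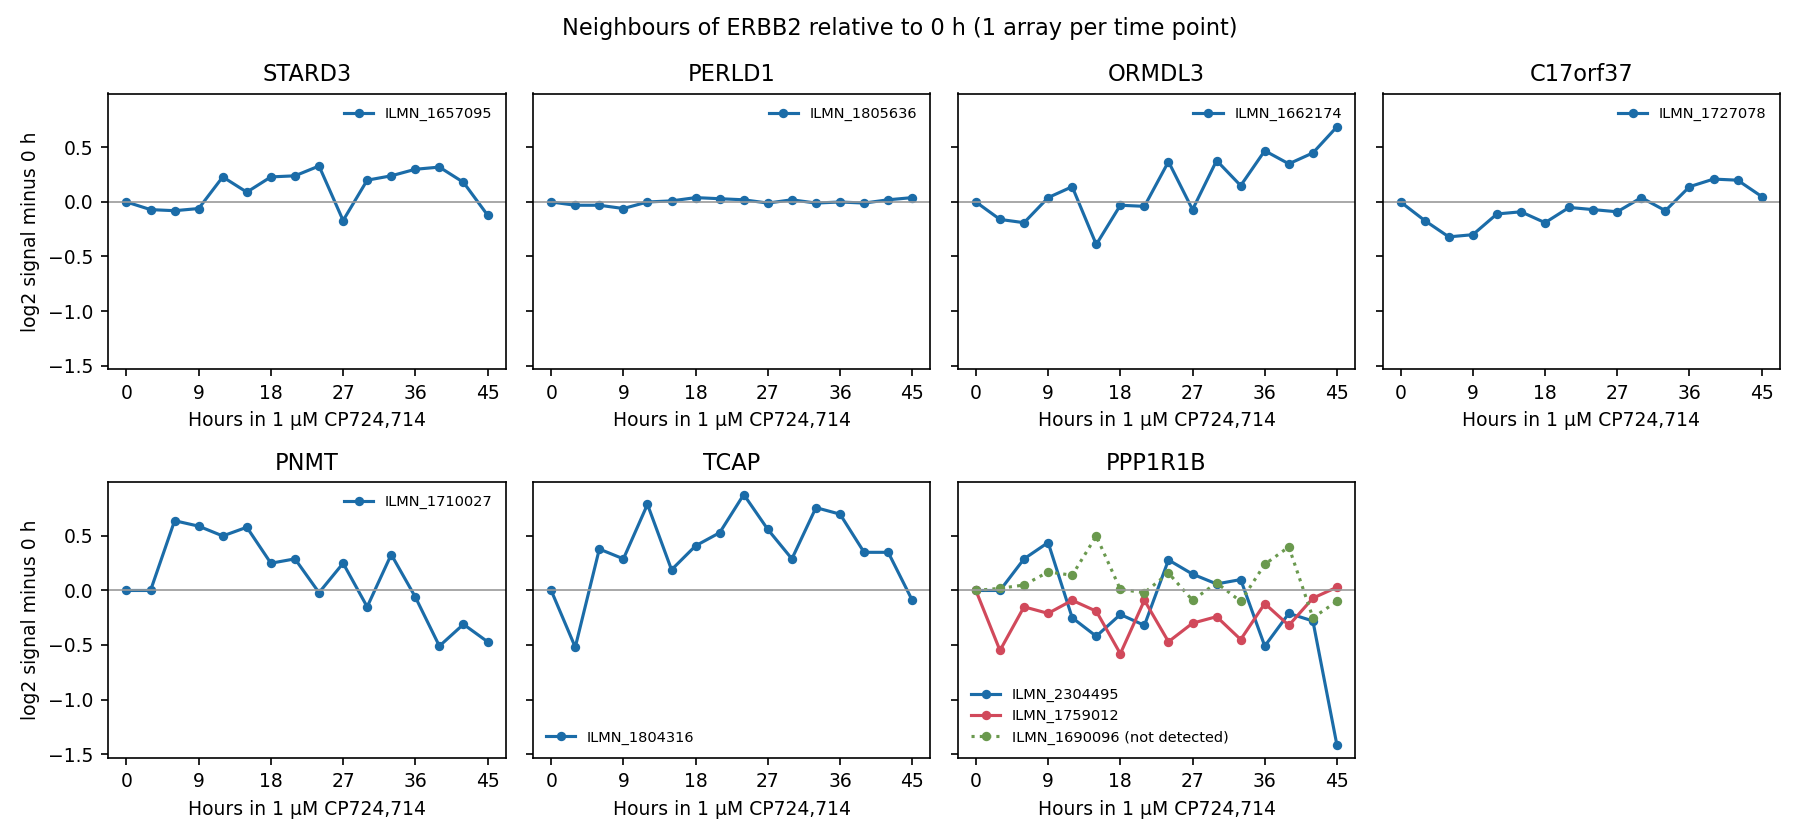
Log2 signal minus the 0 h value for the other 7 genes, 1 panel per gene, against hours in the inhibitor. Points are single arrays, and the dotted line is a PPP1R1B probe that was not detected. ORMDL3 ends higher than its early arrays, and C17orf37 is highest from 36 h to 42 h and ends near its 0 h value. PNMT falls from 6 h on, and PPP1R1B ILMN_2304495 drops at 45 h.

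The study's methods used a change of 1.7-fold to keep genes of another cell line for its comparison. At this size, which was counted without a test, 4 member probes differed from the 0 h array, beside 50.3% of all probes. They were GRB7 ILMN_1740762 and ILMN_1798582, each at 14 of 15 later times, TCAP at 2 and PPP1R1B ILMN_2304495 at 1. The 2 GRB7 probes were past 1.7-fold at 3 h already, when 1.82% of all probes were up as far. None of the 3 ERBB2 probes reached it.

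The genes around the members were taken from a list of 28 genes of 17q, of which 21 were tested by their brightest probe. Of these 2 rose and 4 fell, beside 27.0% and 22.0% of all genes, with a median change of 0.05 log2 units. THRA, a thyroid hormone receptor, rose by 1.44 ± 0.13, and GSDMB, a gasdermin next to ORMDL3, by 1.07 ± 0.22 log2 units. TOP2A, the topoisomerase of dividing cells, fell by 2.86 ± 0.25 and CDC6, a replication licensing factor, fell by 2.10 ± 0.24 log2 units. PSMD3, a proteasome subunit, fell by 0.88 ± 0.18 and MED24, a Mediator subunit, fell by 0.43 ± 0.13. CDC6 was detected on only 4 arrays. Next to the outermost members, GSDMA beyond ORMDL3 did not pass (0.07 ± 0.25) and NEUROD2 beyond PPP1R1B was not tested. IKZF3, between GRB7 and ORMDL3, did not pass either (0.23 ± 0.20). Of the other tested probes, GSDMB had 1 at 1.39 and 1 at 0.15, THRA 1 at 1.43 and 1 at 0.16, and MED24 1 at -0.30 log2 units, of which those at 0.15 and 0.16 did not pass. Of the 9 members by their brightest probe, 2 rose and 2 fell, beside 49.0% of all genes with a trend in either direction. In gene order, the members that fell (PPP1R1B and PNMT) lay on one side of ERBB2, with STARD3, TCAP and PERLD1. The other members that rose (C17orf37 and ORMDL3) lay on the other side, with GRB7. Of these calls, that of PPP1R1B rested on the 45 h array. The other tested probes of PPP1R1B and ERBB2 had no linear trend.

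**Figure D4:**
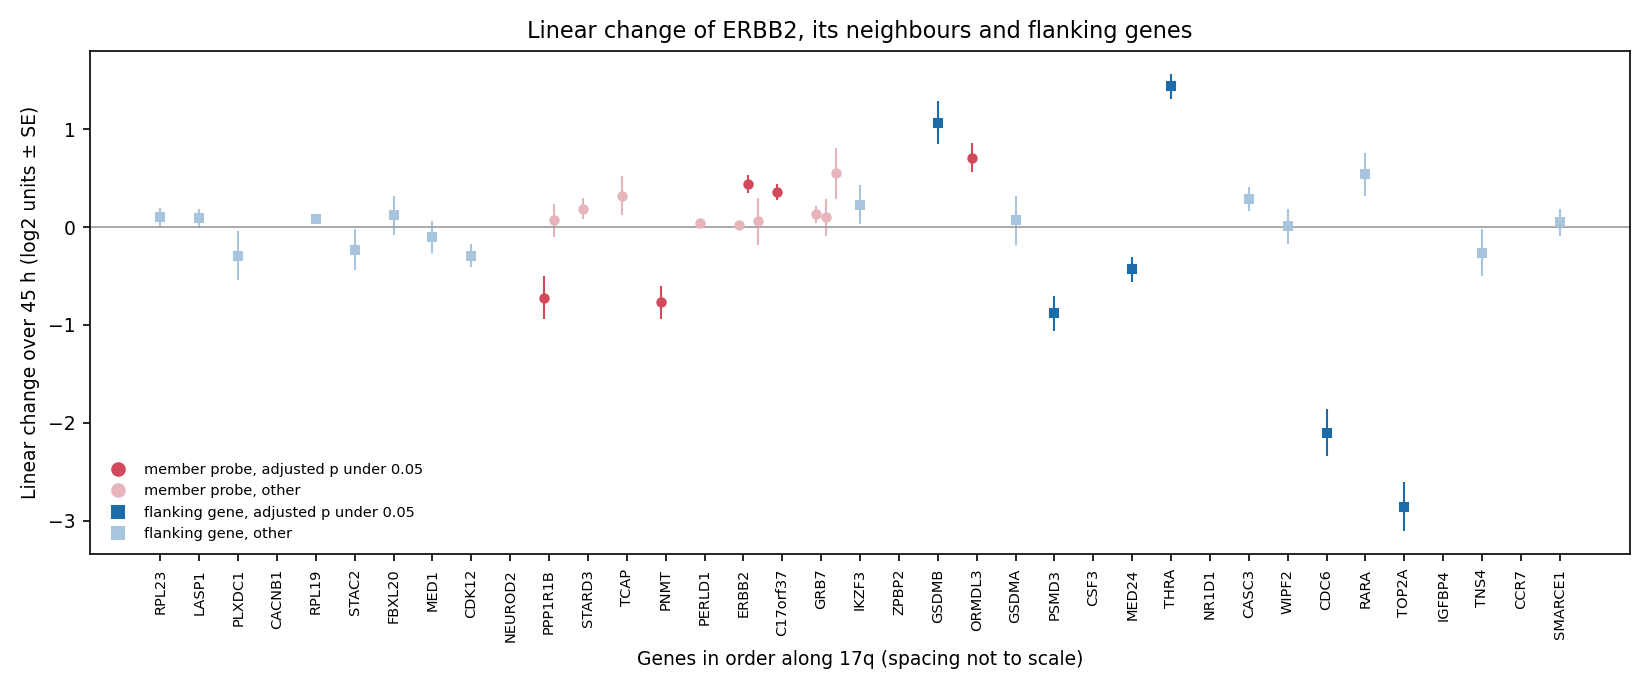
Linear change over 45 h (log2 units ± SE) of the member probes (circles) and of the brightest probe of each tested flanking gene (squares), with genes in their order along 17q and spacing not to scale. Dark symbols have an adjusted p under 0.05 in limma. THRA has the highest value at 1.44 and TOP2A the lowest at -2.86, and the members lie between -0.77 and 0.71.

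The other receptors of the family, which pair with HER2, were compared as paralogs. The brightest probe of ERBB3, the kinase-impaired partner, rose by 0.98 ± 0.17 log2 units (adjusted p = 9.62e-05 in limma), while its other probes, at 0.23 ± 0.15 and 0.24 ± 0.16, did not pass. For EGFR the brightest probe had no linear trend (-0.05 ± 0.10), and the other tested probe rose by 0.98 ± 0.15 (adjusted p = 2.75e-05 in limma). The only tested probe of ERBB4 had no linear trend (-0.35 ± 0.19). By the brightest probe, 2 of the 9 paralogs of members rose and 2 fell, beside 27.0% and 22.0% of all genes, with a median of -0.09 log2 units.

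Genes of HER2 protein turnover gave 3 that rose and 2 that fell among 12, beside 27.0% and 22.0% of all genes, with a median of 0.08 log2 units. CBLB, a ubiquitin ligase for receptors, rose by 1.01 ± 0.12, CUL5, a cullin, by 0.47 ± 0.09, and USP8, a deubiquitinase, by 0.38 ± 0.12. The chaperone gene HSP90AB1 fell by 1.03 ± 0.13. The brightest probe of HSP90AA1, another chaperone gene, fell by 0.28 ± 0.07, and its other probe had 0.25 ± 0.22 (adjusted p = 0.373 in limma). Of 13 genes of adaptors and effectors that receive the signal, 7 rose and 4 fell by the brightest probe, beside the same shares, with a median of 0.30. The largest rises were those of PTK6, a cytoplasmic tyrosine kinase (0.93 ± 0.09), GAB2, a docking protein (0.82 ± 0.13), and the PI3K subunits PIK3R1 (0.59 ± 0.14) and PIK3CA (0.59 ± 0.15). The falls were those of GRB2, the adaptor to Ras (-0.58 ± 0.09), PTPN11, a phosphatase (-0.37 ± 0.09), PLCG1, a phospholipase (-0.34 ± 0.13), and SRC, a kinase (-0.29 ± 0.11). Other tested probes of GRB2 (0.07), SHC1 (-0.13), SRC (0.10), CRK (0.13) and PIK3R1 (0.11 and 0.19) did not pass, and that of PLCG1 fell (-0.55 ± 0.19).

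The courses most like that of ERBB2 ILMN_1728761 over the 16 arrays were those of FAM89B, ABLIM1, FAM20C, MLPH and ZNF277, each with Pearson r = 0.94. All 5 rose, by 0.45 ± 0.08, 1.31 ± 0.09, 0.78 ± 0.11, 1.13 ± 0.09 and 1.09 ± 0.10 log2 units. An r of at least 0.9 was reached by 127 of 16109 other probes (0.788%). The points share their arrays and a trend over time, so these correlations describe the courses only. Probes of the members were left out when these 5 were picked. The brightest probes of the other members had r of 0.59 (TCAP), 0.52 (GRB7), 0.52 (STARD3), 0.50 (C17orf37) and 0.48 (ORMDL3). For PERLD1 it was 0.40, for PPP1R1B -0.23 and for PNMT -0.25.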

How the data were processed

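RNA of 16 parallel cultures was amplified with a biotin label and measured on Illumina bead arrays, 1 per time point. The deposited table holds linear signal intensity values per probe, which the authors had neither background-corrected nor normalized, and a deposited detection p-value. The array version and genome build were not given in the file. The function neqc of limma 3.58.1 (R 4.3.3) corrected the background by normexp, deriving the negative controls from the detection p-values, added an offset of 16, normalized by quantiles and took log2. The offset makes the fold change of a dim probe smaller. A probe entered the test if 3 or more arrays gave it a detection p under 0.05. Courses were cubic polynomials in hours (lmFit, eBayes with trend), adjusted by Benjamini-Hochberg at a threshold of 0.05. The error is the deviation around the course and not between replicates. The fit was tested on simulated data. Slopes of differences between probes were tested two-sided by permutation of the times with 100000 resamples, adjusted over 15 pairs.

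Every probe of the 9 members was described. Of each other list, at most the 4 largest changes past the threshold in each direction were named by the brightest probe of a gene, along with counts of 5 or fewer and the 5 probes most like ERBB2. IKZF3, GSDMA, NEUROD2, TFAP2A, EGFR, ERBB4, ORMDL1 and ORMDL2, whose brightest probe did not pass or was not tested, and the further probes of list genes were named after their values were seen. The members and lists were chosen with earlier results of these data known. Some list genes are in the table under older symbols and were matched through the RefSeq gene table, which also gave the order of genes. Promoter windows came from RefSeq on GRCh38.p14. Alternatives were cyclic loess or median scaling, an offset of 50, uncorrected background, array weights, no filter or one on all 16 arrays, a straight line, sets of 4 consecutive arrays as a factor, another reference, a threshold of 2-fold and each array left out. Leaving out the first and last arrays together, and recounting curved probes under each alternative, were chosen after seeing the data.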

Additional observations from a re-analysis of the deposited data

How the results depend on the processing

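No paired analysis was possible because no time was measured on a second array. Over 791 recomputed values, 713 kept their direction and side of the threshold, 28 lost and 14 gained a call, 9 counts moved by over 1.5 times and 27 changed sign. The linear change of ERBB2 ILMN_1728761 stayed past the threshold under all alternatives but the one with sets of 4 consecutive arrays as a factor, where it was 0.39 ± 0.39 (adjusted p = 0.692 in limma). That setting uses a span of 9 h within each set, and it left 145 trends over all probes and 0 among members and 0 among flanking genes. With it, the change was -0.50 ± 0.47 for STARD3, -0.01 ± 0.17 for PERLD1 and -0.42 ± 0.31 for C17orf37. It was -0.67 ± 0.93 for TCAP and 0.40 ± 0.77 for PNMT, and none of these passed.

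With median scaling the change was -0.07 for ERBB2 ILMN_2352131, -0.03 for GRB7 ILMN_1740762, -0.06 for GRB7 ILMN_2405254 and -0.03 for PERLD1, and GRB7 ILMN_1740762 minus ILMN_2405254 was 0.03. With cyclic loess ERBB2 ILMN_1717902 minus ILMN_2352131 was -0.04. With each of these scalings 3 pair differences passed, in place of 6. Of the 6, those holding ERBB2 ILMN_2352131, PERLD1 or GRB7 ILMN_2405254 are not read, since these probes were near the top on every array. The others were the pair GRB7 ILMN_1798582 and ILMN_1740762, and PNMT and PPP1R1B ILMN_2304495 each against ERBB2 ILMN_1728761. With array weights 2 probes were curved, ERBB2 ILMN_1717902 had -0.35, PPP1R1B ILMN_2304495 lost its call (-0.43, adjusted p = 0.0793 in limma), and GRB7 ILMN_1798582 (0.68) and TCAP (0.65) gained one. Without the first and last arrays 0 were curved, ERBB2 ILMN_1717902 had -0.16 and GRB7 ILMN_1740762 -0.03.

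Without 1 array in turn, 5 to 8 member probes had a linear trend, the 8 without 45 h. Between 8 and 10 were time-dependent, 2 (without 3 h or 45 h) to 6 (without 42 h) were curved, and 6 to 8 flanking genes had a trend. Between 4 and 7 pair differences passed. The change ranged from -0.18 to 0.21 for ERBB2 ILMN_1717902, -0.32 to 0.41 for GRB7 ILMN_1740762, -0.07 to 0.28 for GRB7 ILMN_2405254 and -0.03 to 0.19 for PPP1R1B ILMN_1759012. The pair differences that changed sign ranged from -0.13 to 0.08 (C17orf37 minus ERBB2 ILMN_1728761), -0.33 to 0.07 (TCAP minus the same), -0.19 to 0.18 (ERBB2 ILMN_1717902 minus ILMN_2352131) and -0.25 to 0.14 (GRB7 ILMN_1740762 minus ILMN_2405254). None of the values that changed sign was past the threshold before, other than C17orf37 and PNMT with the sets of 4. Where no value above shows a cause, the cause was not tested. The number of arrays and, for probes near background or near the top of the scale, the signal limit what could be detected.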
